A study of Mus musculus with 16 samples.

Results

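Respiratory complex I, the enzyme that takes electrons from NADH into the respiratory chain, was examined through 42 genes of 22180 measured in mouse gonadal fat. The genes were all those with an array probe set of their own, carrying 1 gene symbol, whose symbol begins with Nduf followed by a class letter and a number. They comprised 6 core subunits, 26 accessory subunits, 8 assembly factors of the Ndufaf series, and a pair kept apart. The pair is Ndufa4, which carries the name but is a subunit of complex IV, and its paralog Ndufa4l2. For Ndufa11, Ndufa12 and Ndufa8, which had several probe sets, the one brightest on average was taken. Another 7 symbols of the family stood only on probe sets shared by several symbols and are not analysed here, among them Ndufs6, Ndufb2 and Ndufb4. The accessory subunit Ndufb1 and the 7 subunits encoded by mitochondrial DNA are also not analysed here.

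The tissue was the white fat pad beside the gonads of male C57BL/6 mice aged 3 to 4 months, collected in the morning. There were 8 samples from fed mice and 8 from mice without food for 16 hours, with no other treatment or allele named in the labels. Total RNA was hybridised to Affymetrix whole-transcript arrays, 1 sample per array, and each value is a log2 signal of a probe set. Whether every sample is from a mouse of its own is not stated in the labels, and the p-values therefore describe sample-to-sample spread, which may be technical. A gene is called when its Benjamini-Hochberg adjusted p in limma, over all 22180 genes, was under 0.05. Changes are fasted minus fed on the log2 scale.

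Complex I has the shape of an L. Its matrix arm binds NADH and passes the electrons along a flavin and a chain of iron-sulfur clusters to ubiquinone, and its membrane arm pumps protons with the energy released. The core subunits do this chemistry, the accessory subunits surround and stabilise them, and assembly factors join the modules without staying in the finished enzyme. In white fat cells the respiratory chain supplies ATP for making and storing lipid, and its NADH comes from pyruvate, the citric acid cycle and fatty acid oxidation.

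Transcripts of complex I were lower in fasted fat in many members, by small steps. Of the 42 genes, 23 fell and none rose (limma adjusted p under 0.05). Of all genes tested, 10.7% were called lower and 8.49% higher. At an unadjusted p under 0.05 in limma 31 were lower and 0 higher. Over all genes 6395 of 22180 reached that level in either direction, as did 5225 of the 10832 that passed the dim filter given below. An exact rank sum test with Benjamini-Hochberg adjustment called 23 members lower and 0 higher, and 9.68% of all genes lower. All but 4 of the 42 had a negative log2 fold change, with a median of -0.234, whereas over all genes 50.9% were negative and the median was -0.00422. The members that fell included all 6 measured core subunits, 13 of 26 accessory subunits, 3 of 8 Ndufaf factors and Ndufa4l2. With the Ndufa4 pair set aside, 22 of 40 fell.

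In 7 of the 42 genes the highest fasted array lay below the lowest fed array, which held for 3.45% of all genes. These were the core subunits Ndufs7 and Ndufs8, the accessory subunits Ndufb3, Ndufa11 and Ndufs4, and the assembly factors Ndufaf7 and Ndufaf3. In 21 of the 23 genes that fell, all 8 fasted arrays lay below the median of the fed arrays. That count covers only genes already called lower from the same values. It describes the calls, adds no support to them, and was not made over all genes. Weak signal was rare in the family, since 40 of the 42 passed a filter on dim values (a linear signal of at least 20 in at least 8 arrays) and Ndufs5 and Ndufaf2 did not. Among the 10832 genes that passed it, 19.6% were called lower, and their median log2 fold change was -0.0258. In 742 of these 10832 genes the highest fasted array lay below the lowest fed array.

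Of 3 rescalings of the arrays, subtraction of array medians changed the count most. It was 23 with cyclic loess (9.91% of all genes called lower) and 22 with quantile normalization repeated (9.64%). After subtraction of each array's median, 12 of the 42 genes were called lower, against 7.8% of all genes, and none higher. The members' median was then -0.194, while that of all genes was 0.0358. By class, 4 of 6 core subunits, without Ndufs3 and Ndufv1, 5 accessory subunits and 2 Ndufaf factors were then called lower. Over all genes, higher calls made up 44.3% of calls as deposited and 54.7% after that subtraction. In bulk tissue, fewer cells of a type and less RNA per cell cannot be told apart.

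**Figure D1:**
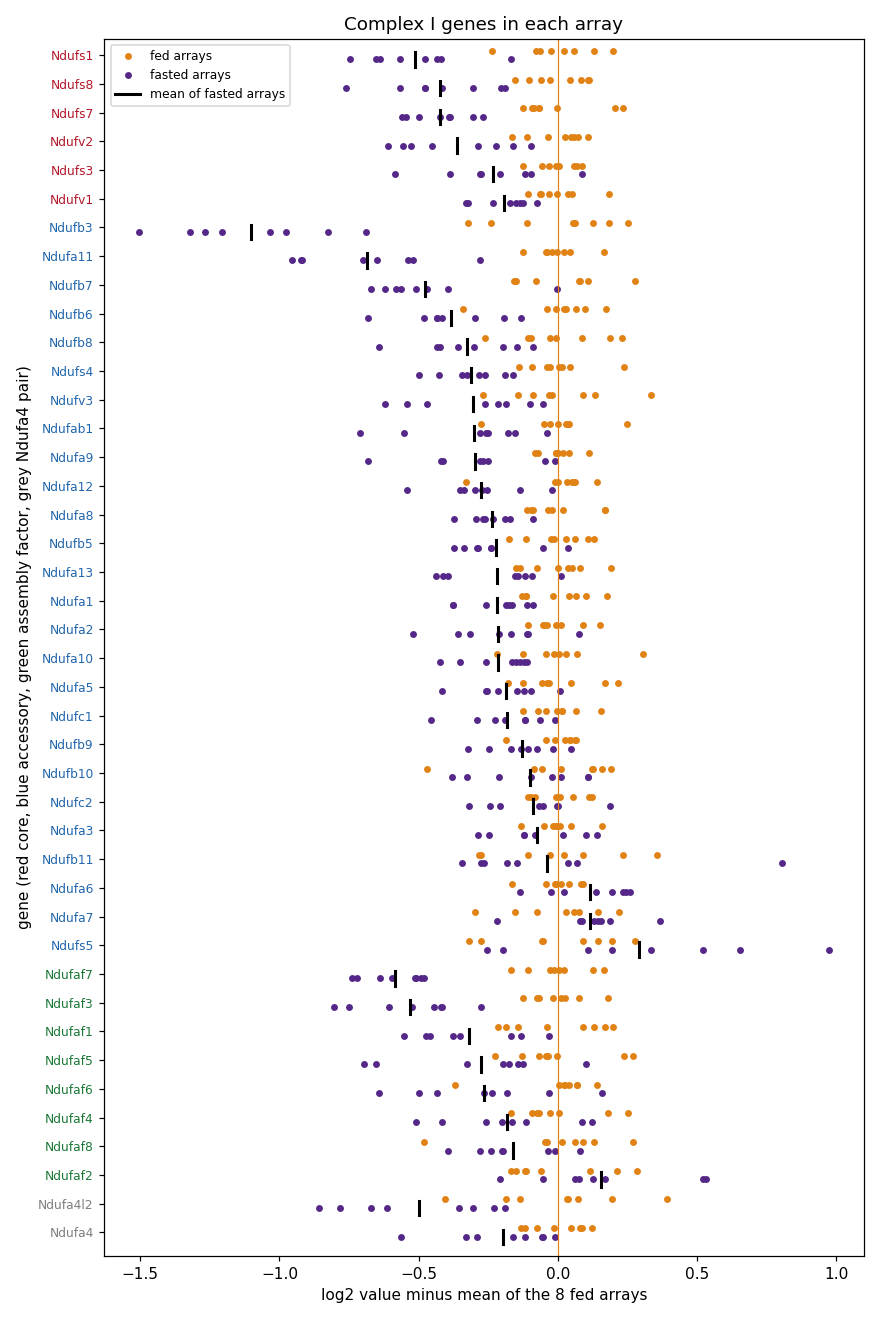
Each point is 1 array (orange fed, purple fasted), placed by its log2 value minus the mean of the 8 fed arrays for that gene, and the black bar is the mean of the 8 fasted arrays. The fasted points lie to the left of all fed points in 7 of the 42 genes, Ndufb3 farthest, and lie on both sides of 0 in genes such as Ndufb11.

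The 6 measured nuclear core subunits fell by 0.19 to 0.51, with a median log2 fold change of -0.393. Ndufs1, the large subunit that carries iron-sulfur clusters near the NADH site, ranged from 8.01 to 8.44 in fed arrays (median 8.24) and from 7.50 to 8.08 in fasted arrays (median 7.72). Only 1 fasted array, fasted replicate 8, stood above the lowest fed array. Its mean went from 8.25 ± 0.13 to 7.73 ± 0.18 (SD, n = 8 per group), a 1.43-fold difference (log2 fold change -0.51, SE 0.083, limma adjusted p = 1.58e-04).

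Ndufs7 and Ndufs8 hold the last iron-sulfur clusters before ubiquinone. Ndufs7 lay between 9.55 and 9.91 in fed arrays (median 9.61) and between 9.12 and 9.41 in fasted arrays (median 9.27), a log2 fold change of -0.42 (SE 0.071, limma adjusted p = 2.21e-04). Ndufs8 lay between 8.74 and 9.01 in fed arrays (median 8.90) and between 8.14 and 8.71 in fasted arrays (median 8.45), also a change of -0.42 (SE 0.081, limma adjusted p = 7.56e-04). Neither gene had a fasted array within the fed range.

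The NADH end of the matrix arm is formed by Ndufv1, which binds the flavin, and Ndufv2, which carries an iron-sulfur cluster. Ndufv2 ranged from 8.37 to 8.64 in fed arrays (median 8.57) and from 7.93 to 8.44 in fasted arrays (median 8.17), with 6 fasted arrays below every fed one (log2 fold change -0.36, SE 0.081, limma adjusted p = 0.00296). Ndufv1 ranged from 8.51 to 8.80 in fed arrays (median 8.60) and from 8.28 to 8.54 in fasted arrays (median 8.46), with 7 fasted arrays below every fed one (log2 fold change -0.19, SE 0.060, limma adjusted p = 0.0300). Ndufs3, which enters early in assembly of the ubiquinone-binding module, was the core subunit closest to the threshold. It ranged from 5.83 to 6.05 in fed arrays (median 5.96) and from 5.37 to 6.04 in fasted arrays (median 5.71), with fasted replicate 8 inside the upper part of the fed range (log2 fold change -0.23, SE 0.080, limma adjusted p = 0.0487).

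The calls of 2 core subunits lay near the threshold and were lost when any 1 of several arrays was left out. That of Ndufs3 was lost without any 1 of fed replicates 1, 3, 4, 5, 6, 7 and 8 or fasted replicates 1, 2, 3, 4 and 6 (limma adjusted p up to 0.0949), and that of Ndufv1 without fed replicates 1, 3 or 7 or fasted replicates 1, 6 or 7 (up to 0.0625).

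Among the 26 accessory subunits, 13 fell, 13 were not called and none rose. The median log2 fold change was -0.218, and 23 were negative. The largest change of the whole family was that of Ndufb3, a small subunit of the far end of the membrane arm. It ranged from 6.55 to 7.12 in fed arrays (median 6.93) and from 5.36 to 6.18 in fasted arrays (median 5.75). The groups were separated by a clear gap. The mean went from 6.87 ± 0.21 to 5.77 ± 0.27 (SD, n = 8 per group), which is 2.15-fold lower (log2 fold change -1.10, SE 0.11, limma adjusted p = 1.26e-06).

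Ndufa11, a membrane-spanning subunit of the membrane arm, was next. It ranged from 8.57 to 8.86 in fed arrays (median 8.68) and from 7.74 to 8.42 in fasted arrays (median 8.02), without overlap, and its mean was 1.61-fold lower (log2 fold change -0.69, SE 0.090, limma adjusted p = 1.91e-05). The other probe set of Ndufa11, which was dimmer, gave -0.45 and was not called (SE 0.16, limma adjusted p = 0.0560). The spread of Ndufa11 was wider in fasted (SD 0.24) than in fed arrays (SD 0.084).

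Other membrane arm subunits fell by less. Ndufb7, which faces the intermembrane space, ranged from 6.61 to 7.04 in fed arrays (median 6.76) and from 6.09 to 6.76 in fasted arrays (median 6.23), and only fasted replicate 2 was above the lowest fed array (log2 fold change -0.48, SE 0.093, limma adjusted p = 9.77e-04). Ndufb6 and Ndufb8, both embedded in the membrane, fell by 0.38 and 0.32 (SE 0.084 and 0.088), and 5 fasted arrays of each lay below every fed one. Ndufa8, another subunit of the intermembrane face, fell by 0.24 (SE 0.063) and its other probe set gave -0.16 (limma adjusted p = 0.386). Ndufb5 fell by 0.22 (SE 0.071), with fed values of 6.61 to 6.91 and fasted values of 6.41 to 6.82.

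In the matrix arm, Ndufs4 was the accessory subunit without overlap. It secures the NADH module late in assembly, and its loss in mice gives a model of Leigh syndrome. It ranged from 7.99 to 8.37 in fed arrays (median 8.12) and from 7.64 to 7.97 in fasted arrays (median 7.83), a log2 fold change of -0.31 (SE 0.067, limma adjusted p = 0.00217). Ndufv3, of the NADH module, fell by 0.31 (SE 0.098), and Ndufa9, a nucleotide-binding subunit near the ubiquinone site, by 0.30 (SE 0.083). Ndufa12, which takes its place at the end of assembly, fell by 0.28 (SE 0.079), and its other probe set gave -0.26 without a call (limma adjusted p = 0.176). Ndufab1, the mitochondrial acyl carrier protein, sits in both arms and also serves fatty acid synthesis inside mitochondria. Fed values ran from 5.03 to 5.56 and fasted values from 4.60 to 5.27 (log2 fold change -0.30, SE 0.093, limma adjusted p = 0.0271).

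The remaining accessory subunit that fell was Ndufa1, a small membrane subunit named after its value was seen, by 0.22 (SE 0.067). Other calls near the threshold were also lost with 1 array left out. Ndufb5 was lost without fed replicates 1, 2 or 7 or fasted replicates 2, 3, 6 or 7 (limma adjusted p up to 0.0654), and Ndufv3 without fed replicates 1, 3, 5 or 7 or fasted replicates 4, 6 or 7 (up to 0.0710). Ndufa1 was lost without fed replicate 6 or fasted replicates 3 or 6 (up to 0.0579) and Ndufab1 without fed replicate 1 or fasted replicate 7 (up to 0.0581).

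The 13 accessory subunits without a call had log2 fold changes from -0.22 to 0.29, with a median of -0.101. Those named here, beyond the 3 nearest to 0, were chosen after their values were seen. Ndufa13, Ndufa2 and Ndufa10 had changes of -0.22 each, the same size as Ndufa1, and lay just outside the threshold (limma adjusted p = 0.0595, 0.0573 and 0.0511). Ndufa5 and Ndufc1 had changes of -0.19 and -0.18 (limma adjusted p = 0.0867 and 0.0677), and Ndufb9 and Ndufb10 had changes of -0.13 and -0.10. The 3 nearest to 0 were Ndufb11 (log2 fold change -0.04, 95% interval -0.34 to 0.26), Ndufa3 (-0.08, interval -0.22 to 0.07) and Ndufc2 (-0.09, interval -0.24 to 0.06). The sign of Ndufb11 turned under several scalings and array sets, and 1 fasted array, replicate 3, stood at 5.33 with the other fasted arrays at or below 4.60.

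Positive values were seen in 3 accessory subunits, none called. Ndufa6, which binds an acyl carrier protein in the matrix arm, lay between 8.30 and 8.56 in fed arrays (median 8.47) and between 8.33 and 8.72 in fasted arrays (median 8.63), a change of 0.12 (95% interval -0.03 to 0.26). Ndufa7, also of the matrix arm, had a change of 0.12 (interval -0.06 to 0.29). Ndufs5, of the intermembrane face, had a change of 0.29 (interval -0.03 to 0.61), but was dim, with a fed mean of 3.65 ± 0.22 and a fasted mean of 3.94 ± 0.42 (SD, n = 8).

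By position in the enzyme, 10 of 14 measured subunits of the matrix arm fell, with a median log2 fold change of -0.287. In the membrane arm 8 of 17 fell, with a median of -0.218. Of all genes 10.7% were called lower. The difference between the arms, and that between core and accessory subunits, was not tested. Falls were found at the NADH end, the ubiquinone site and along the membrane arm, so no arm was without them.

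**Figure D2:**
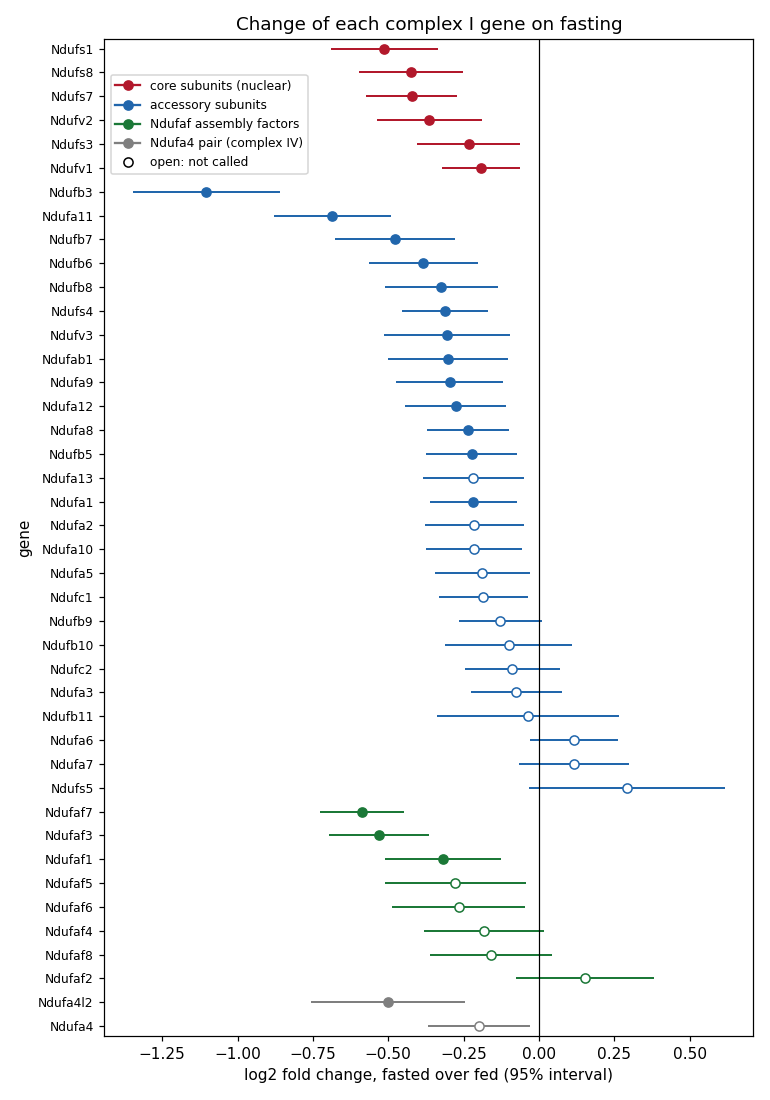
Points give the log2 fold change of each gene, fasted over fed, with its 95% interval from limma, coloured by class; open points were not called. The 6 core subunits are all filled and left of 0, and among the accessory subunits 13 are filled, with Ndufb3 at -1.10 apart from the rest.

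The promoters of Ndufb3, the member with the largest fall, and of the 3 members with a match to the NRF1 site upstream of the start are shown, because NRF1 is a known activator of nuclear genes of the respiratory chain. RefSeq promoter windows (assembly GRCm38.p6, 250 bases before to 50 after the gene's start) were found for 37 of the 42 genes; Ndufa2, Ndufa4l2, Ndufaf6, Ndufb9 and Ndufs1 had none. The 120 bases just upstream of the start are given 5′ to 3′ on the gene's strand, with the NRF1 letters GCGCATGCG, or their reverse complement, in capitals and overlapping matches of both strands run together. The windows are chr17:56717642-56717761 on the plus strand for Ndufa11, chr2:36049339-36049458 on the minus strand for Ndufa8, chr4:24897963-24898082 on the plus strand for Ndufaf4 and chr1:58586277-58586396 on the plus strand for Ndufb3.
Ndufa11: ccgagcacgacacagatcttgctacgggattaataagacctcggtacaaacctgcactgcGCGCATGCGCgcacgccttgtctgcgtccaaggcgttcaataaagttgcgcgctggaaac
Ndufa8: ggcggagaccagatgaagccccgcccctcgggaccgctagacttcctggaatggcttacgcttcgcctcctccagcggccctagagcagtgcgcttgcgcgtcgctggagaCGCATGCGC
Ndufaf4: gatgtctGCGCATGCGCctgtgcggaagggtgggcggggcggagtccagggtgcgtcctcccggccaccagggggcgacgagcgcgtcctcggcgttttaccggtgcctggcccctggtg
Ndufb3: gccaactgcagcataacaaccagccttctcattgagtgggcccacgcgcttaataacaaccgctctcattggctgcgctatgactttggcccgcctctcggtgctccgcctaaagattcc

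Of these 4 genes, Ndufa11, Ndufa8 and Ndufb3 fell and Ndufaf4 was not called, and Ndufb3, with the largest fall, holds none of the letters searched. Over both strands of the whole window, the NRF1 letters were found in 4 of the 37 (10.8%), namely Ndufa11, Ndufa8, Ndufaf4 and, 16 to 25 bases downstream of the start and so not shown, Ndufaf5, and in 2.65% of the windows of all tested genes. Of these 4, 2 fell. The YY1 letters AAGATGGCG were found in 5 (13.5%, against 2.17%), Ndufs7, Ndufs4, Ndufa9, Ndufc1 and Ndufaf8, each 10 to 43 bases downstream of the start. The first 3 of these fell. The GABP letters CCGGAAGT were found in 1, Ndufs3 (2.7%, against 5.62%), and the estrogen-related receptor element TCAAGGTCA in none of the 37 (against 0.365% of tested genes). Matches to these letters are a description of the sequence and do not show binding.

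Among the factors that bind such sites, 1 was higher, 1 lower and 2 were not called. Nrf1 was higher in fasted arrays by 0.28 (SE 0.061, limma adjusted p = 0.00268), without overlap between the groups, while Gabpa and Yy1 were not called, at 0.14 and 0.11 (limma adjusted p = 0.196 and 0.254). These 3 were named for the motifs after their values were seen. Esrra, the estrogen-related receptor that acts with PGC-1 coactivators, fell by 0.51 (SE 0.14, limma adjusted p = 0.0145), a call lost in a rank sum test (adjusted p = 0.0706 by the exact test). In a list of 14 regulators of mitochondrial biogenesis, 2 fell and 3 rose, with a median log2 fold change of 0.127. The share that fell, 14.3%, lay between the 10.7% of all genes and the 19.6% of genes that passed the dim filter. Of all genes, 8.49% were called higher. The other that fell was Nrip1, a corepressor of oxidative genes in fat, by 0.77 (SE 0.13), and Tfb2m, which starts mitochondrial transcription, rose by 0.55 (SE 0.11), although the lower of its probe sets was not called (limma adjusted p = 0.229).

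The 8 Ndufaf assembly factors had a median log2 fold change of -0.272, and 7 were negative. Ndufaf7, a methyltransferase that acts early in assembly, ranged from 6.70 to 7.03 in fed arrays (median 6.86) and from 6.13 to 6.38 in fasted arrays (median 6.31). No fasted array reached the fed range, and the mean was 1.50-fold lower (log2 fold change -0.59, SE 0.065, limma adjusted p = 2.60e-06). Ndufaf3, which works on the ubiquinone module together with Ndufaf4, ranged from 7.22 to 7.53 in fed arrays (median 7.35) and from 6.55 to 7.07 in fasted arrays (median 6.87), again without overlap (log2 fold change -0.53, SE 0.077, limma adjusted p = 5.61e-05). Its partner Ndufaf4 ranged from 5.67 to 6.09 in fed arrays (median 5.79) and from 5.32 to 5.96 in fasted arrays (median 5.65), and was not called (log2 fold change -0.18, 95% interval -0.38 to 0.01). The difference between these partners was not tested.

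Ndufaf1 belongs to the assembly complex that builds the inner part of the membrane arm. It ranged from 6.29 to 6.70 in fed arrays (median 6.53) and from 5.95 to 6.47 in fasted arrays (median 6.14), with 5 fasted arrays below every fed one (log2 fold change -0.32, SE 0.090, limma adjusted p = 0.0160). Its call was lost after subtraction of array medians (limma adjusted p = 0.0623) and in the exact rank sum test (adjusted p = 0.0706). Ndufaf5, which hydroxylates Ndufs7, had a change of -0.28 (95% interval -0.51 to -0.05, limma adjusted p = 0.0909), and Ndufaf6, an early factor, one of -0.27 (interval -0.48 to -0.05, limma adjusted p = 0.0840). Ndufaf8, a partner of Ndufaf5, had a change of -0.16 (interval -0.36 to 0.04). Ndufaf2, which holds the place of Ndufa12 before the last step, was the one with a positive value, 0.15 (interval -0.07 to 0.38), and was dim (fed mean 3.89 ± 0.18, fasted mean 4.04 ± 0.26, SD, n = 8). The count of Ndufaf factors that fell was 5 without fasted replicate 3, and also 5 when dim genes were left out of the fit. The additional genes in both cases were Ndufaf5 and Ndufaf6. Of all genes tested, 9.8% and 23.8%, in that order, were called lower in these fits.

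Assembly factors outside the Nduf nomenclature were lower too. Of 10 measured, 7 fell (70%) and none rose, with a median log2 fold change of -0.300. Of all genes 10.7% were called lower, and of those that passed the dim filter 19.6%. The partners of Ndufaf1 in its assembly complex are Acad9, Ecsit and Tmem126b, and all 4 of these genes fell, Ndufaf1 with the limit just given. Acad9, which resembles a fatty acid dehydrogenase, went from 7.07 ± 0.16 to 6.28 ± 0.19 (SD, n = 8 per group), a log2 fold change of -0.79 (SE 0.089, limma adjusted p = 2.86e-06) without overlap. Tmem126b fell by 0.46 (SE 0.10), and Ecsit, named after its value was seen, by 0.34 (SE 0.092). Tmem126a, a relative that serves a more distal membrane module, fell by 0.53 (SE 0.094), without overlap.

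Of the Ndufa4 pair, Ndufa4l2, a paralog known to be induced by hypoxia, fell and Ndufa4, a subunit of complex IV, was not called. Ndufa4l2 ranged from 5.64 to 6.44 in fed arrays (median 6.08) and from 5.19 to 5.86 in fasted arrays (median 5.56), a log2 fold change of -0.50 (SE 0.12, limma adjusted p = 0.00510). Ndufa4 ranged from 10.35 to 10.60 in fed arrays (median 10.49) and from 9.91 to 10.47 in fasted arrays (median 10.34), a change of -0.20 (95% interval -0.37 to -0.03, limma adjusted p = 0.0948).

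Iron-sulfur clusters, which the core subunits need, are made by a separate machinery. Of 11 measured genes of mitochondrial cluster assembly, 1 fell (9.09%, against 10.7% of all genes) and 3 rose, with a median of 0.0473. Of all genes 8.49% were called higher, as were 1627 of the 10832 that passed the dim filter. Isca2, a late-acting carrier of clusters, fell by 0.33 (SE 0.089), a call lost after subtraction of array medians and in a rank sum test. The glutaredoxin Glrx5 rose by 0.56 (SE 0.10), the ferredoxin Fdx1 by 0.50 (SE 0.089) and Isca1, named after its value was seen, by 0.32 (SE 0.091).

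Many genes of NADH shuttles and supply were lower, not all of which lead to complex I. In a list of 13 such genes, 8 fell (61.5%, against 10.7% of all genes) and 1 rose, with a median of -0.404. Pdhb, of pyruvate dehydrogenase, fell by 0.80 (SE 0.12), and the glycerol phosphate dehydrogenase Gpd2, which passes electrons to ubiquinone without complex I, by 0.88 (SE 0.13). The aspartate aminotransferase Got1, of the cytosolic side of the malate-aspartate shuttle, was the one that rose, by 0.93 (SE 0.16).

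In the other respiratory complexes 3 of 4 genes of complex II (75%) and 4 of 8 of complex III (50%) fell. So did 2 of 10 of complex IV (20%) and 4 of 15 of complex V (26.7%), and in none of these complexes did a gene rise. Of all genes 10.7% were called lower. The shares of complexes IV and V lay near the 19.6% called lower among genes that passed the dim filter. The median log2 fold changes of complexes II, III, IV and V were -0.351, -0.257, -0.150 and -0.143. Sdhd fell by 0.54 (SE 0.074) in complex II and Cyc1 by 0.51 (SE 0.080) in complex III. In complex II the call of Sdhb (-0.26, SE 0.084) was lost without any 1 of fed replicates 1 and 3 to 8 or fasted replicates 1, 2, 3 and 7 (limma adjusted p up to 0.0748). In complex IV that of Cox7b (-0.30, SE 0.097) was lost without any 1 of fed replicates 1 and 3 to 6 or fasted replicates 2, 3, 4 and 7 (limma adjusted p up to 0.0722). The differences between complexes were not tested.

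**Figure D3:**
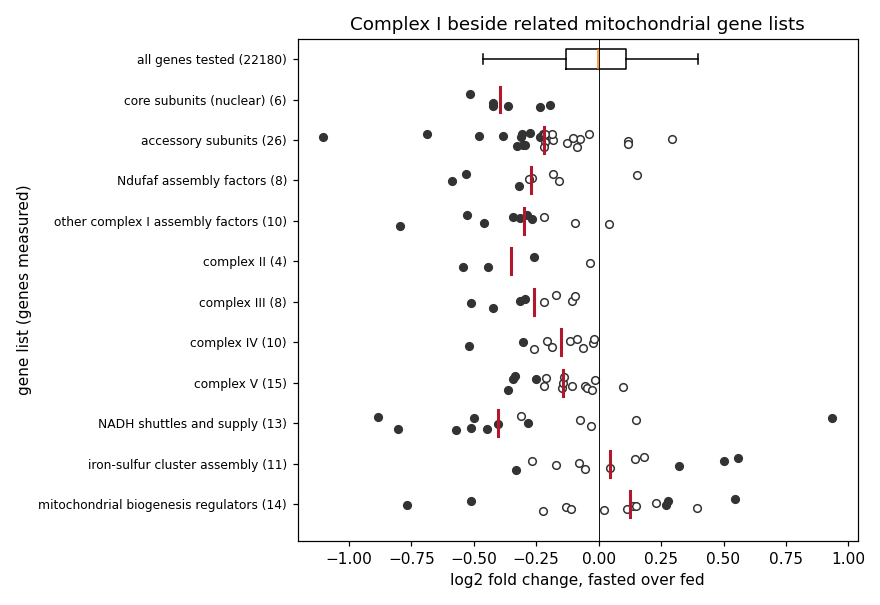
Each point is the log2 fold change of 1 gene, fasted over fed, filled where called, with the list's median as a red bar; the box gives the quartiles and the 5th to 95th percentile range of all 22180 genes. Core subunits, complex II and NADH supply have the lowest medians (-0.393, -0.351 and -0.404), while iron-sulfur cluster assembly (0.0473) and regulators (0.127) lie above 0.

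The members were also followed array by array, as the mean deviation of the 42 genes from each gene's own mean over the 16 arrays. Fed values ran from -0.00754 to 0.212 (median 0.149) and fasted values from -0.262 to -0.00883 (median -0.123). The nearest arrays of the groups, fed replicate 2 at -0.00754 and fasted replicate 8 at -0.00883, were almost level, and each had 20 of the 42 genes below their mean. In the other fed arrays 2 to 11 genes were below their mean, and in the other fasted arrays 27 to 40. Fed replicate 2 was the lowest fed array in 23 of the 42 genes. In the fasted group, replicate 8 was the highest array in 17 genes and replicate 2 in 12, while replicate 7 was the lowest in 16. The same mean over all genes stayed between -0.0217 and 0.0292.

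**Figure D4:**
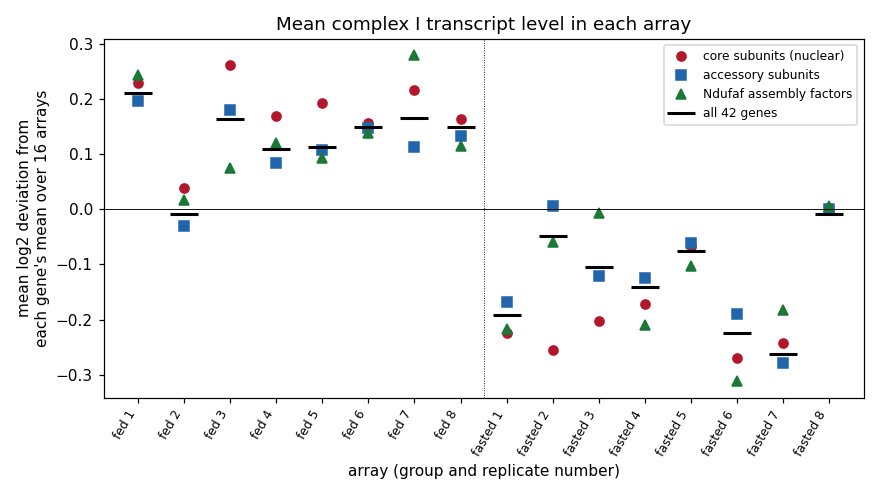
For each of the 16 arrays, symbols show the mean log2 deviation of the core, accessory and Ndufaf genes from each gene's mean over all arrays, and black bars show the mean of all 42. The bars of fed arrays lie above those of fasted arrays, but fed 2 (-0.00754) and fasted 8 (-0.00883) are almost level.

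The classes did not always keep together within an array. In fasted replicate 2 the core subunits were at -0.256, among the lowest, while the accessory subunits were at 0.00575. In fasted replicate 3 the core subunits were at -0.203 and the Ndufaf factors at -0.00658. Spread was wider after fasting: the SD was larger among fasted than among fed arrays in 33 of 42 genes (78.6%), against 56.1% of all genes. Among genes that passed the dim filter the share was 60.9%. The 42 genes share their arrays and are not separate observations. With the group means removed, the median correlation between 2 members over the 16 arrays was 0.247 (861 pairs, 77.6% above 0), against 0.0117 between members and all other genes. The points of each correlation share their arrays and RNA, and these values are a description. The other genes include the dim ones (10832 of all 22180 genes passed the filter), and no set matched for signal was compared. Ndufb9 and Ndufaf8 had the highest median correlation with other members (0.461 and 0.432), and Ndufb11, Ndufa6 and Ndufs5 had values just below 0 (-0.0195, -0.0107 and -0.00794).

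Correlations between whole arrays were 0.966 to 0.993. Fed replicate 2 and fasted replicate 7 stood apart by motile cilia transcripts, whose 7 measured markers, all dim, had a mean of 5.12 and 4.67 in them and of 2.86 to 3.51 in the other arrays, and fed replicate 3 had the highest mean of 8 liver transcripts (8.57), close to fed replicates 2 (8.37) and 4 (8.26). Without fed replicates 2 and 3 and fasted replicate 7, 19 of the 42 genes were called lower and none higher, with a median of -0.263. Of all genes 10.3% were then called lower. Among the members 5 of 6 core subunits, 10 accessory subunits and 3 Ndufaf factors fell. The labelled tissue carried its markers: all 8 adipocyte markers passed the dim filter, with 1 lower and 2 higher and a mean of 10.88 to 11.19 in fed and 11.00 to 11.24 in fasted arrays. Fed replicate 2 had the lowest of these adipocyte means and fasted replicate 8 the highest, the same arrays that were lowest and highest in their group for the complex I mean. Of 6 brown and beige fat markers none was called and 3 were dim, and Ucp1 had a fed mean of 2.85 ± 0.12 and a fasted mean of 2.94 ± 0.34 (SD, n = 8). Endothelial markers had 3 of 8 higher (means of 8.41 to 8.85 in fed and 8.64 to 8.98 in fasted arrays), macrophage markers 2 higher and 1 lower of 8 (8.55 to 8.85 and 8.54 to 9.15), fibroblast markers 3 lower of 8 (9.05 to 9.32 and 8.67 to 9.39), mesothelial markers 1 lower of 7 and skeletal muscle markers 1 higher and 1 lower of 8. Hepatocyte markers had 1 of 8 higher, and none of the 7 cilia and 6 T and B cell markers was called. Of all genes 10.7% were called lower and 8.49% higher. Among the 10832 that passed the dim filter 19.6% were called lower and 1627 genes higher. A list of 7 or 8 markers with 1 call (14.3% or 12.5%) lies near these shares. The counts were not read as shifts in cell types. The part of these lists in the complex I values was not tested.

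The count of members that fell was recomputed under 28 other choices of processing. It lay between 12 and 31, and in none of them was a member called higher. The share of all genes tested that was called lower moved as well. It was 23.8% with dim genes left out (31 members), and 7.8% after subtraction of array medians and 7% at an adjusted p under 0.01 (12 members each). With each array left out in turn the member count lay between 18 and 25. It was 18 without fed replicate 1 or fasted replicate 6 and 25 without fed replicate 2. Of all genes 9.62%, 9.79% and 11%, in that order, were then called lower.

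**Figure D5:**
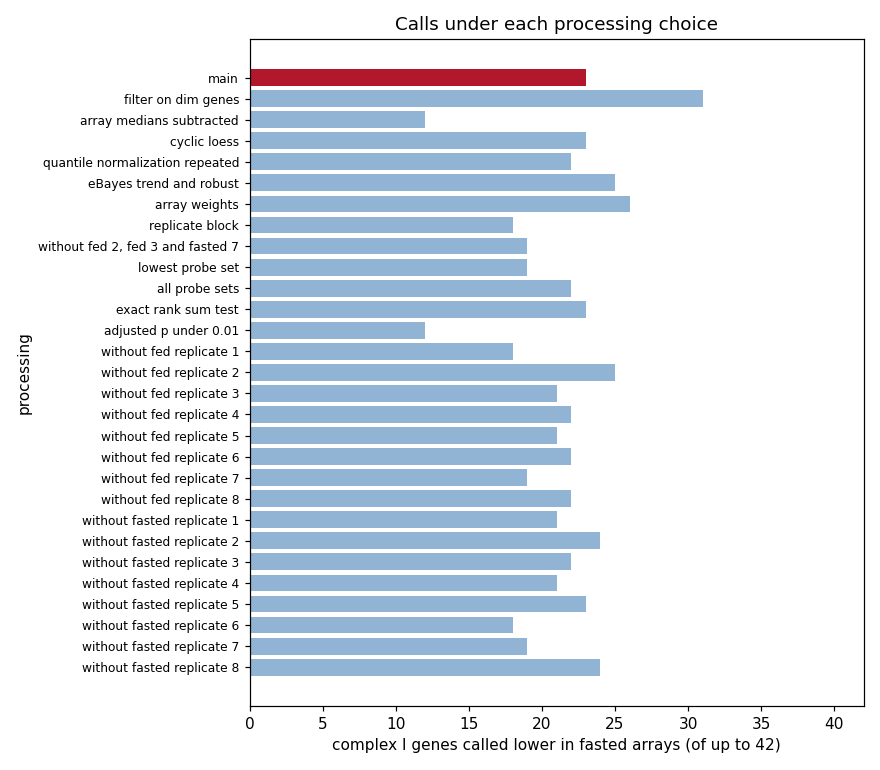
Bars give the number of complex I genes called lower in fasted arrays under each processing choice, with the main result of 23 in red. The shortest bars, at 12, are those after subtraction of array medians and at the stricter threshold. The longest, at 31, is that with dim genes left out. Of all genes tested, 7.8%, 7% and 23.8%, in that order, were called lower under these choices.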

How the data were processed

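Gene expression was measured in 16 samples of gonadal white fat (8 fed, 8 fasted), each on 1 array. The authors deposited log2 values (the scale was read from the values) made with RMA per the submitters' processing notes. RMA corrects background, normalizes between arrays and summarises probes; its version and software were not given in the sources used here. RMA sets arrays to a shared distribution, so changes are relative to other transcripts. Of 41345 probe sets, 25335 were in the platform annotation, 23521 with 1 symbol and 1814 with several, and 22180 genes were used. The groups were fitted in R 4.3.3 by limma 3.58.1 (group as the sole term, default eBayes), with Benjamini-Hochberg adjustment over all genes. The script was tested on simulated data. The labels name no batch. Precision is limited by the number of arrays.

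The members and lists were chosen with earlier results of these data known. Named genes were all core subunits, all Ndufaf factors, the Ndufa4 pair, the 12 accessory subunits called with the largest change, the 3 nearest to 0, any called higher, and up to 3 called members of each other list, or the one with the lowest p; for any other gene the text says that its value had been seen. Other processing tried comprised leaving arrays out, a dim-gene filter, 3 rescalings (array medians, cyclic loess, quantiles again), array weights, a trended robust eBayes, a replicate block, other probe sets per gene, a rank sum test and a threshold of 0.01. Plots were made with matplotlib 3.10.9 in Python 3.11.15.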

Additional observations from a re-analysis of the deposited data

Results flagged for a closer look

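For each named gene, the lowest and the highest array of each group of 8 were compared with the nearest of the others by Dixon's ratio. Of 180 groups 17 stood out, 8 of them among the 84 groups of the complex I family, where chance alone flags about 1 in 20.

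Fed replicate 2 was the low array in 5 of the 8 family groups: Ndufa12 at 7.19 (nearest 7.51), Ndufaf8 at 5.57 (nearest 6.00), Ndufb10 at 5.88 (nearest 6.26), Ndufb6 at 6.42 (nearest 6.72) and Ndufb9 at 10.77 (nearest 10.91). Without this array 25 family members were called lower, against 11% of all genes. Ndufaf6 was low in fed replicate 3 (4.37, nearest 4.74). Ndufb11 was high in fasted replicate 3 (5.33, nearest 4.60) and Ndufb7 in fasted replicate 2 (6.76, nearest 6.37).

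Among genes of other lists, Tmem126b was low in fed replicate 2 (6.43, nearest 6.79) and in fasted replicate 2 (5.89, nearest 6.31), and Tmem126a in fasted replicate 3 (6.46, nearest 6.74). Sdhb was low in fed replicate 2 (8.35, nearest 8.61) and Sdhd in fasted replicate 1 (8.04, nearest 8.35). Cidea was low in fed replicate 5 (3.19, nearest 4.15) and in fasted replicate 1 (2.71, nearest 3.40). Mrc1 was high in fasted replicate 1 (9.38, nearest 9.10), and Yy1 was low in fasted replicate 4 (7.35, nearest 7.55).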

How the results depend on the processing

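Over all 42 members and 28 alternatives, 83 calls were lost and 33 gained. Of 867 values of the 31 members named by rule, 777 kept their direction and side of the threshold, 76 kept the direction without the call, 8 gained a call and 6 turned in sign. Those 6 were all of Ndufb11, which was 0.00196 after subtraction of array medians, 0.004 with cyclic loess, 0.0129 with repeated quantile normalization and 0.0402 without fed replicates 2 and 3 and fasted replicate 7, and lay between -0.158 and 0.0128 with each array left out. Outside the family, Cox7b was 0.192 with its lowest probe set. Members called lower were 12 after subtraction of array medians (accessory subunits 5, core subunits 4, assembly factors 2) and 12 at an adjusted p under 0.01 (again 5, 4 and 2). Of all genes, 7.8% and 7%, in that order, were then called lower. The rank sum test called 5 core subunits and 2 assembly factors lower. Assembly factors called lower were 3 to 5 with each array left out and 5 with the filter on dim genes. With that filter 23.8% of the genes tested were called lower. The cause was not tested. With the lowest probe set of each gene, 19 members were lower, against 10.1% of all genes, and Ndufa11, Ndufa12, Ndufa8 and Ndufs3 lost their calls. With the replicate number as a block (replicate block), 18 members were lower, without Ndufa1, Ndufab1, Ndufb5, Ndufs3 and Ndufv1. Of all genes 9.68% were called lower with that block. The labels share these numbers between groups, but same-numbered arrays correlated at -0.216 to 0.218, above 0.1 in 2 of 8 pairs, so the numbers were not taken as pairs. Dim signal limits Ndufs5 and Ndufaf2.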
